A study of Mus musculus with 20 samples.

Results

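The adult sarcomeric myosin heavy chain genes Myh2, Myh1, Myh4, Myh7 and Myh7b were followed in mouse plantaris muscle through mechanical overload (MOV) and a miR-1 mimic. These 5 genes were chosen by name, and all 5 were found, by Ensembl identifier and mouse symbol, among the 54532 genes of the deposited count tables. RNA-seq was carried out on 20 plantaris libraries from male C57BL/6J mice aged 5 months. In MOV mice part of the gastrocnemius and soleus, the synergists of the plantaris, was removed in both hindlimbs, and sham mice had the sham operation. During the same surgery the left plantaris of a mouse received 50 µL of a control lentivirus and the right plantaris 50 µL of a lentivirus carrying the miR-1a-3p mimic, and the muscles were taken after 10 days. The 4 groups, with 5 libraries each, are named by surgery and then virus, as in sham control or MOV mimic. Both viruses used a mouse CMV promoter with a TurboGFP reporter, and only part of the fibers took up virus, so that a mimic library also holds RNA from fibers without it. The control and mimic muscles came from opposite legs, but the labels do not tie a library number to a mouse. The p-values below therefore measure the spread between libraries, and they treat control and mimic libraries as independent. The level of mature miR-1 was not analysed here.

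A myosin heavy chain is the motor protein of the thick filament, and the isoform a muscle fiber makes largely sets how fast it shortens and how much ATP it uses. In adult mouse limb muscle Myh7 encodes the slow type I chain, Myh2 the fast IIa chain, Myh1 the fast IIx chain and Myh4 the fastest, IIb chain. Myh7b encodes a slow-tonic type of chain, and whether its RNA is made into protein in the plantaris was not measured here. Loading is known to move rodent fast muscle along the series from IIb through IIx and IIa towards I, and the plantaris is a fast muscle in which IIb and IIx fibers prevail.

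The fast genes lie next to each other on chromosome 11 in the order Myh2, Myh1, Myh4 (GRCm38.p6, NCBI RefSeq: chr11:67171027-67197517, chr11:67200102-67224577 and chr11:67237812-67260447). Myh7 lies at chr14:54970684-54994626 and Myh7b at chr2:155611243-155634307. The windows from 250 bases before to 50 bases after the start site of the 3 fast genes share an identical run of 20 bases, printed below in capitals with 5 bases of each promoter on either side. It is shown because these 3 genes share the run, while their log2 fold changes after MOV differed in control muscles. There edgeR gave -1.59 for Myh4, 0.84 for Myh1 and 0.11 for Myh2. In mimic muscles all 3 lay below 0 (-0.80, -0.19 and -0.46). Whether the genes differed from each other was not tested.

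Myh2 (plus strand, chr11:67170892-67170921): agaaaAATATTTCTAATTATATCCAaccat
Myh1 (plus strand, chr11:67199932-67199961): gagggAATATTTCTAATTATATCCAaacat
Myh4 (plus strand, chr11:67237644-67237673): caagaAATATTTCTAATTATATCCAttcac

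The run was searched on both strands of 32851 RefSeq promoters of the same length and was found in 3 of them (0.00913%), those of Myh2, Myh1 and Myh4. It began 130 bases before the start site in Myh2, 165 in Myh1 and 163 in Myh4. The closest stretch in the promoter of Myh8, the perinatal chain of the same cluster, matched 18 of the 20 bases, while those of Myh3 and Myh13 in this cluster matched 12 and 11, which 35.8% and 65.9% of all promoters reach. The closest stretches matched 13 of 20 in Myh7 and 12 of 20 in Myh7b, a match that 12.6% and 35.8% of all promoters reach. The letters TATAAA were present on either strand in the Myh2, Myh1 and Myh4 windows and not in those of Myh7 and Myh7b, against 13.6% of all promoters. These matches are descriptions of the letters in the windows only.

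The slow genes each hold a microRNA within their span, miR-208b in Myh7 and miR-499 in Myh7b. Their mature sequences (RefSeq, GRCm38.p6) are shown because the host genes moved together across the libraries, with the seed, bases 2 to 8, in capitals. Both seeds begin with UAAGAC. The microRNAs themselves were not measured in these libraries.

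miR-499-5p (in Myh7b, plus strand, chr2:155622893-155622913): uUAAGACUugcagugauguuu
miR-208b-3p (in Myh7, minus strand, chr14:54975710-54975731): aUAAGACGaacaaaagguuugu

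Several limits of the counts bear on these genes. Of the 50-base windows in the longest annotated transcript (GENCODE vM1), 26.9% in Myh2, 26.7% in Myh1 and 18.9% in Myh4 occur unchanged in another sarcomeric heavy chain, and 22.2% in Myh7, all of them in the cardiac gene Myh6. None of the windows of Myh7b did. With windows of 100 bases the percentages were lower, at 9.17% in Myh2, 9.73% in Myh1, 3.85% in Myh4 and 11.2% in Myh7. Reads from such stretches could be counted for either gene or dropped, and which of these was done is not given in the sources used here, so that the split between Myh2, Myh1 and Myh4 carries an uncertainty the replicates do not show. The annotation also places Myhas over Myh1, Mhrt and Gm31251 over Myh7, and Trpc4ap over Myh7b, and without a stated strand setting reads from such overlaps cannot be told apart.

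Total counts lay between 12036360 (MOV mimic 4) and 23056525 (sham mimic 4) per library, and the 5 heavy chains together took between 3.25% and 6.25% of them. Counts in one library were from 82063 to 744362 for Myh4, and from 26 to 473 for Myh7b, whose values are the least precise of the 5 members. The 7 myofiber reference genes (Acta1, Ckm, Des, Ttn, Neb, Actn2 and Tcap) summed to between 39160 and 101500 CPM (counts scaled to library size, after TMM scaling over all libraries) per library. Some libraries stood apart. By their distance over 8515 genes to the sham and MOV means, MOV control 5 and MOV mimic 5 lay nearer to sham, while sham control 3 and sham mimic 5 lay nearer to MOV. All libraries were kept in the groups their labels give, and whether any was exchanged, or came from a muscle in which the surgery had little effect, was not tested. Sham control 1 and sham mimic 1 had the lowest summed fibroblast markers (1301 and 1935 CPM, against 4604 to 17000 CPM elsewhere).

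Per kilobase of transcript, the scale on which different genes can be compared, sham control muscle held most Myh4 (5884 ± 2343 CPM per kb; mean ± SD, n = 5 here and below), then Myh1 (2232 ± 646), Myh2 (936 ± 256), Myh7 (14.0 ± 13.0) and Myh7b (0.840 ± 0.374). The ranges of Myh4 and Myh1 did not overlap in sham control, but they did in sham mimic. In MOV control Myh1 came first (3986 ± 1922), followed by Myh4 (1950 ± 466) and Myh2 (1002 ± 232). There each neighbor in this order overlapped the next. In MOV mimic Myh4 (3086 ± 1899), Myh1 (2314 ± 1551) and Myh2 (693 ± 436) all overlapped. Myh7 and Myh7b were the lowest, in that order, in every group.

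The share of each isoform was its counts as a percentage of the summed counts of the 5 genes in the same library, a value that does not depend on how libraries are scaled. Shares of one library add to 100 and are not independent of each other. Each share was compared between groups with a two-sided exact permutation test on the 10 libraries, for which the smallest possible p is 0.00794. In all 20 such tests were made (5 genes, 4 comparisons), and the p-values are unadjusted.

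**Figure D1:**
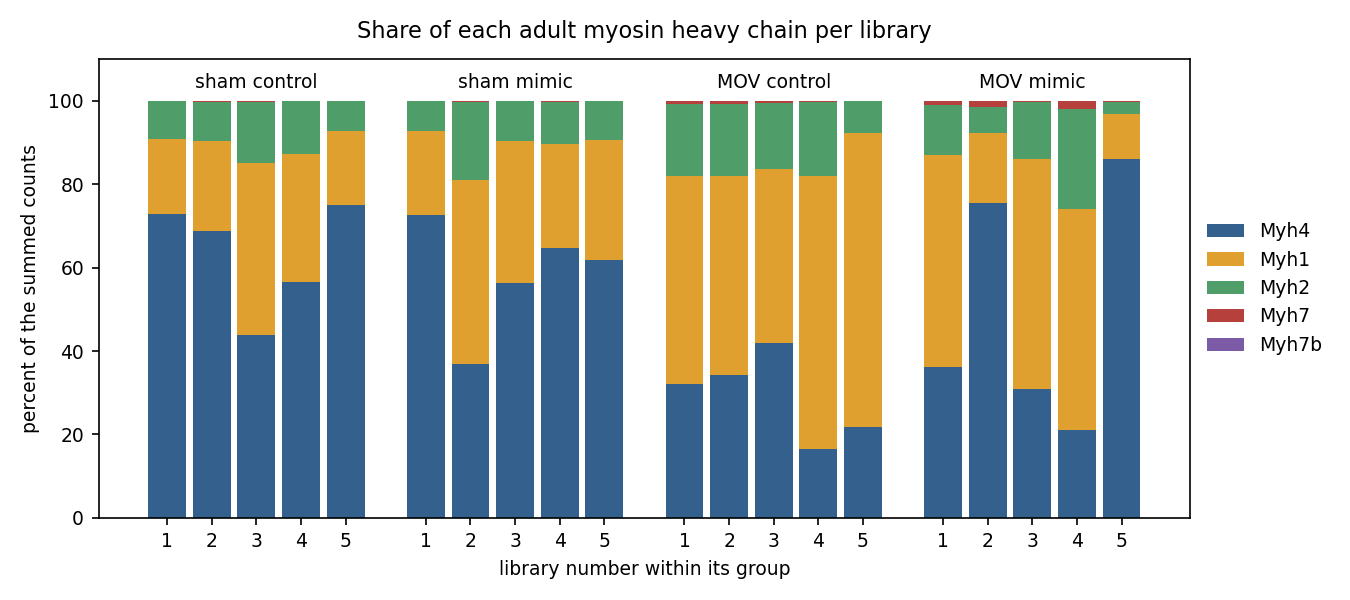
Stacked bars give the percentage of the summed counts of the 5 adult heavy chains taken by each isoform in each of the 20 libraries, with the number of the library within its group on the x axis. Myh4 took 43.8% to 74.9% in sham control and 16.6% to 41.9% in MOV control, whereas MOV mimic 2 and 5 (75.5% and 86.1%) lay above the other MOV mimic libraries.

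The first comparison was overload alone, MOV control against sham control. Myh4, the IIb chain, took 72.8%, 68.8%, 43.8%, 56.5% and 74.9% of the summed chains in sham control 1 to 5. In MOV control 1 to 5 it took 32.1%, 34.3%, 41.9%, 16.6% and 21.7%. No MOV control library reached the lowest sham control library, although MOV control 3 and sham control 3 were close to each other. The mean share was 34.1 percentage points lower in MOV control (29.3% ± 10.1 against 63.4% ± 13.1; exact permutation p = 0.00794).

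By share, Myh1, the IIx chain, made up most of that difference. Its share was 17.9%, 21.5%, 41.2%, 30.7% and 17.9% in sham control 1 to 5. In MOV control 1 to 5 it was 49.97%, 47.8%, 41.7%, 65.5% and 70.6%. Again the groups did not overlap, with MOV control 3 just above sham control 3. The mean share was 29.2 percentage points higher in MOV control (55.1% ± 12.3 against 25.9% ± 10.0; exact permutation p = 0.00794). When any one library was left out, the difference lay between 25.4 and 33.1 points for Myh1 and between -38.9 and -30.9 points for Myh4, each with an exact permutation p of at most 0.0159. By amount, Myh1 in MOV control 1 to 3 (16300, 16720 and 15420 CPM) lay within the sham control range (8602 to 19030 CPM). MOV control 4 and 5 lay above it (31210 and 41570 CPM), and the log2 fold change of 0.84 was not called (adjusted p from edgeR 0.198). A share can rise when another chain falls, so the higher Myh1 share does not by itself show more Myh1 RNA.

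The remaining isoforms overlapped between sham control and MOV control. Myh2, the IIa chain, took between 7.13% and 14.6% in sham control and between 7.70% and 17.6% in MOV control, a difference of 4.54 points (exact permutation p = 0.0873). Without MOV control 5, which alone was under 15.9%, the difference was 6.40 points (exact permutation p = 0.0159). Myh7 took 0.175% ± 0.170 in sham control and 0.446% ± 0.285 in MOV control (exact permutation p = 0.119), and 0.375 points separated the groups without MOV control 5 (exact permutation p = 0.0397). Myh7b took 0.00979% ± 0.00510 and 0.0208% ± 0.0112 (exact permutation p = 0.0873), with 0.0147 points between the groups without MOV control 5 (exact permutation p = 0.0238). MOV control 5 thus decided whether these 3 shares passed 0.05. Its Myh7 share was 0.0292% and its Myh2 share 7.70%, each the lowest of its group.

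**Figure D2:**
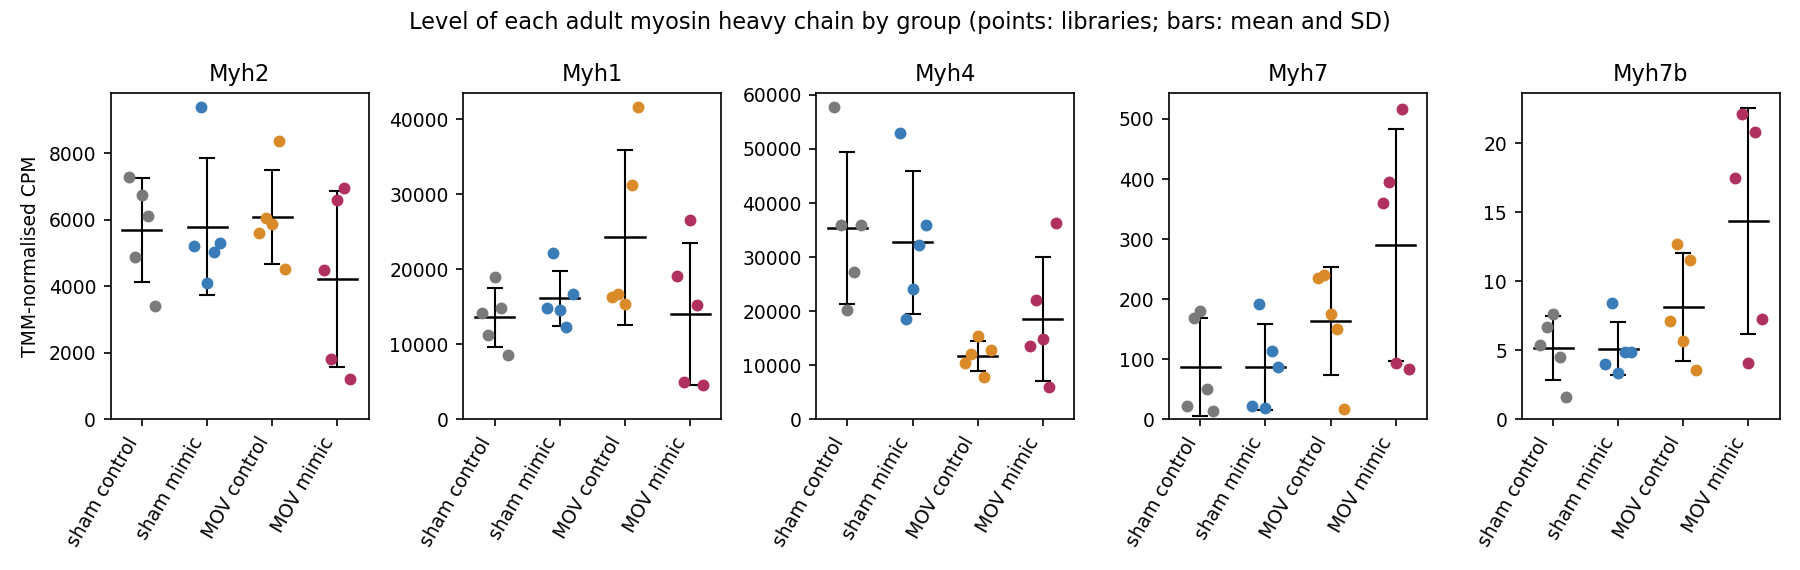
Points give the TMM-normalised CPM of each heavy chain in each library, with the group mean and SD in black and the y axis of each panel starting at 0. The 5 MOV control libraries lie below every sham control library for Myh4, while for the other genes the groups overlap.

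As amounts rather than shares, Myh4 was the isoform with the largest difference. Its CPM were 57670, 36010, 20230, 27170 and 35910 in sham control 1 to 5 and 10460, 12000, 15490, 7921 and 12790 in MOV control 1 to 5. The groups did not overlap, which held for 4.89% of the 14974 genes tested. The log2 fold change from edgeR was -1.59 ± 0.30 (SE), 3.00-fold lower in MOV control, with an adjusted p of 0.0554 over all genes tested. Myh4 ranked as number 36 by p, and it missed the threshold of 0.05.

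In this comparison 0 of the 5 members passed edgeR's threshold, against 0.00668% of all genes tested. The one gene that did, named after its value was seen, was Nos1, the neuronal nitric oxide synthase of the muscle fiber membrane (log2 fold change -1.70 ± 0.22, adjusted p from edgeR 0.0461). At an unadjusted p under 0.05 there were 2 of 5 members, Myh4 and Myh1, against 18.2% of all genes. DESeq2 called 1 of 5, Myh4 (log2 fold change -1.60, adjusted p 2.46e-06), where it called 6.1% of all genes. Voom with quality weights called Myh4 too (-1.38, adjusted p 0.0322), where it called 1.96%. With edgeR, Myh4 passed without sham control 3 (-1.73, adjusted p 0.0198) or without MOV control 5 (-1.62, adjusted p 0.0403), both among the libraries that stood apart. Without any other single library it did not pass, and over all 10 such fits the log2 fold change lay between -1.73 and -1.34, with adjusted p-values from edgeR up to 0.1545 (without sham control 2). Myh4 also passed with no filter on low counts (adjusted p 0.0109), where 388 of 28224 genes did. With a minimum of 10 counts in total it passed too (adjusted p 0.0389), where 163 of 22203 genes did.

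The amounts of the other members differed less relative to their spread. Myh1 CPM were 14190, 11270, 19030, 14790 and 8602 in sham control 1 to 5 and 16300, 16720, 15420, 31210 and 41570 in MOV control 1 to 5. Only MOV control 4 and 5 lay above the highest sham control library, and these had the lowest fibroblast markers of their group (6251 and 4604 CPM against 14580 to 17000 CPM) and the lowest leukocyte markers (261 and 258 CPM against 672 to 884 CPM), whose part in the result was not tested. The log2 fold change of Myh1 was 0.84 ± 0.33 (adjusted p from edgeR 0.198), and with single libraries left out it lay between 0.56 (without MOV control 5) and 1.00 (without sham control 3). Myh2 lay between 3419 and 7303 CPM in sham control and between 4536 and 8388 CPM in MOV control, with a log2 fold change of 0.11 ± 0.24 (adjusted p from edgeR 0.848) that turned to -0.03 without sham control 5 and -0.05 without MOV control 4. Summed over the 5 genes, the amounts were 46210 to 79190 CPM in sham control and 32620 to 58920 CPM in MOV control. In bulk muscle fewer fibers of a type and less RNA per fiber cannot be told apart.

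The slow chains were low and variable. Myh7 CPM were 21.7, 168, 181, 51.2 and 14.2 in sham control 1 to 5 and 236, 240, 176, 151 and 17.2 in MOV control 1 to 5. Its values spanned more than 10-fold within either group, with MOV control 5 at the level of the lowest sham control libraries, and the log2 fold change was 0.92 ± 0.72 (adjusted p from edgeR 0.530). Myh7b was between 1.65 and 7.65 CPM in sham control and between 3.57 and 12.7 CPM in MOV control (log2 fold change 0.66 ± 0.41, adjusted p from edgeR 0.412). With single libraries left out, the log2 fold change lay between 0.64 and 1.37 for Myh7 and between 0.43 and 0.85 for Myh7b, the lower values without sham control 5 and the upper ones without sham control 3.

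The amounts were also scaled to the 7 myofiber reference genes. On that scale Myh4 was -1.41 ± 0.25 (adjusted p from edgeR 0.0675), while the median of all genes was 0.165 in place of 0.04, so that relative to it the value of Myh4 was nearly as low as before. The summed heavy chains were 0.671 to 0.846 of the summed reference genes in sham control and 0.525 to 0.677 in MOV control, so that the ranges overlapped by the edge of 1 library, MOV control 5.

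The second comparison was overload in muscles that received the mimic, MOV mimic against sham mimic. The Myh4 share was 72.6%, 36.9%, 56.3%, 64.8% and 61.9% in sham mimic 1 to 5. In MOV mimic 1 to 5 it was 36.2%, 75.5%, 30.9%, 21.0% and 86.1%. MOV mimic 2 and 5 lay above all sham mimic libraries, and MOV mimic 1, 3 and 4 below all of them. The mean difference was -8.58 percentage points (49.9% ± 28.9 against 58.5% ± 13.4; exact permutation p = 0.532).

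The Myh1 share mirrored this pattern. It was 20.3%, 44.0%, 34.1%, 24.9% and 28.8% in sham mimic 1 to 5 and 50.9%, 16.9%, 55.1%, 53.0% and 10.8% in MOV mimic 1 to 5, with a mean difference of 6.94 points (exact permutation p = 0.524). Left out one at a time, MOV mimic 2 or 5 moved the Myh4 difference to -15.0 or -17.6 points and the Myh1 difference to 12.1 or 13.6 points. At the other end, the Myh4 difference was -1.35 points without MOV mimic 4 (exact permutation p = 0.921) and the Myh1 difference 2.49 points without MOV mimic 3 (exact permutation p = 0.825). Without both, a choice made after their shares were seen and hence given with no test, the differences were -29.1 points for Myh4 and 22.6 points for Myh1.

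The Myh2 share ran from 7.14% to 18.7% in sham mimic and from 2.87% to 24.2% in MOV mimic (exact permutation p = 0.849). Myh7b, the slow-tonic chain, took 0.00553%, 0.0167%, 0.00793%, 0.00984% and 0.00848% in sham mimic 1 to 5 and 0.0467%, 0.0759%, 0.00845%, 0.0724% and 0.0173% in MOV mimic 1 to 5. All MOV mimic libraries but number 3 were above the highest sham mimic library. The mean share was 0.0345 points higher (exact permutation p = 0.0397), and the p was above 0.05, at most 0.0873, when any single sham mimic library was left out. Without single MOV mimic libraries the p was at most 0.0397, and without MOV mimic 3 the difference was 0.0434 points (exact permutation p = 0.00794). The Myh7 share was 0.167% ± 0.144 in sham mimic and 0.900% ± 0.707 in MOV mimic (exact permutation p = 0.0714), and its exact permutation p was 0.0238 without MOV mimic 3 and also without MOV mimic 5 (a difference of 0.909 points in either case).

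**Figure D3:**
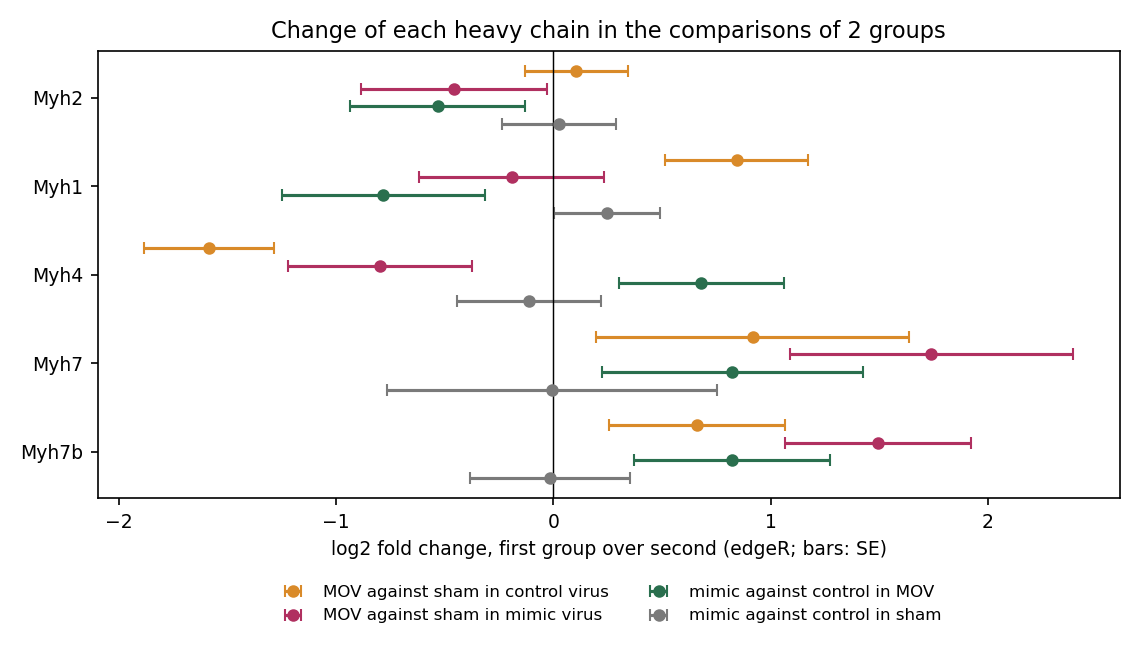
Points give the edgeR log2 fold change of each heavy chain (x axis) in each comparison of 2 groups, with bars of 1 SE. Myh4 lies at -1.59 for MOV against sham in control muscles and at -0.80 in mimic muscles, Myh7 and Myh7b lie above 0 in both, and all 5 members lie within 0.25 of 0 for mimic against control in sham.

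In amounts, 0 of 5 members passed edgeR in mimic muscles, where 0% of 14918 genes did, and 0 of 5 were free of overlap between the groups, against 2.73%. At an unadjusted p under 0.05 there were 2 of 5, Myh7 and Myh7b, against 13.4% of all genes. DESeq2 called 1 of 5, Myh7b (1.498, adjusted p 0.0404), where it called 1.48% of all genes, and voom called 0 of 5, where it called 0.0134%. Myh7b CPM were 4.03, 8.40, 3.39, 4.89 and 4.91 in sham mimic 1 to 5 and 17.5, 22.1, 4.07, 20.9 and 7.29 in MOV mimic 1 to 5. MOV mimic 1, 2 and 4 lay above every sham mimic library. With edgeR the log2 fold change was 1.4955 ± 0.43 (adjusted p 0.272), and leaving out single libraries gave 1.28 to 1.74 (lowest adjusted p 0.0772).

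Myh7 CPM were 22.99, 191, 19.8, 114 and 87.0 in sham mimic 1 to 5 and 361, 395, 93.9, 517 and 83.1 in MOV mimic 1 to 5. The same libraries, MOV mimic 1, 2 and 4, lay above all of sham mimic, while MOV mimic 3 and 5 lay within it. The log2 fold change was 1.74 ± 0.65 (adjusted p from edgeR 0.313). Myh4 CPM were 52970, 18570, 24100, 32240 and 35850 in sham mimic 1 to 5 and 13540, 22030, 14900, 6047 and 36300 in MOV mimic 1 to 5. Its log2 fold change was -0.80 ± 0.42 (adjusted p from edgeR 0.436), -1.21 without MOV mimic 5 (adjusted p 0.107) and -0.57 without MOV mimic 4.

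Myh1 and Myh2 amounts were lower in MOV mimic 2 and 5 than in any other library of the 4 groups. Myh1 CPM were 14800, 22120, 14570, 12370 and 16680 in sham mimic 1 to 5 and 19060, 4930, 26560, 15240 and 4573 in MOV mimic 1 to 5, with MOV mimic 2 and 5 below and MOV mimic 3 above every sham mimic library. The log2 fold change was -0.19 ± 0.43 (adjusted p from edgeR 0.877), and it turned to 0.02 without MOV mimic 2, to 0.02 without MOV mimic 5 and to 0.03 on the scale of the myofiber reference genes. Myh2 lay between 4089 and 9395 CPM in sham mimic and between 1210 and 6960 CPM in MOV mimic, with a log2 fold change of -0.46 ± 0.43 (adjusted p from edgeR 0.662) that lay between -0.71 (without MOV mimic 4) and -0.22 (without sham mimic 2) when single libraries were left out. MOV mimic 2 and 5, the low ones, held 1817 and 1210 CPM.

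The third comparison was the mimic under overload, MOV mimic against MOV control. MOV control libraries were shared with the first comparison and MOV mimic libraries with the second. The Myh4 share was 20.6 percentage points higher (exact permutation p = 0.222) and the Myh1 share 17.8 points lower in MOV mimic (exact permutation p = 0.183). Without MOV mimic 2 and 5 the mean Myh4 share of MOV mimic was 29.4%, against 29.3% in MOV control, and the mean Myh1 share 53.0% against 55.1%. Myh2 was 3.35 points lower (exact permutation p = 0.444), Myh7 0.455 points higher (exact permutation p = 0.238) and Myh7b 0.0234 points higher (exact permutation p = 0.175). With single libraries left out the differences ranged from 11.6 points (without MOV mimic 5) to 27.85 points (without MOV mimic 4) for Myh4, from -22.2 (without MOV mimic 3) to -11.1 points (without MOV mimic 5) for Myh1, from -6.44 to -1.115 for Myh2, from 0.231 to 0.631 for Myh7 and from 0.0154 to 0.0323 for Myh7b, and the p stayed above 0.05 in each.

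By amount the groups overlapped for all 5 members, while 0.762% of 15220 genes were free of overlap. With edgeR 0 of 5 members passed, where 0% of genes did, and 0 of 5 were under an unadjusted p of 0.05, against 4.21% of all genes. DESeq2 called 0 of 5, where it called 0.0197%, and voom 0 of 5, where it called 0%. The log2 fold changes were 0.68 ± 0.38 for Myh4, -0.78 ± 0.47 for Myh1, -0.53 ± 0.40 for Myh2, 0.82 ± 0.60 for Myh7 and 0.82 ± 0.45 for Myh7b, each with an adjusted p from edgeR of 0.999. Without single libraries they ranged from 0.27 (without MOV mimic 5) to 0.91 (without MOV mimic 4) for Myh4, from -1.15 (without MOV mimic 3) to -0.50 (without MOV control 5) for Myh1, from -0.78 (without MOV mimic 4) to -0.30 (without MOV mimic 5) for Myh2, from 0.52 (without MOV mimic 4) to 1.05 (without MOV mimic 5) for Myh7 and from 0.61 to 1.06 for Myh7b. Without MOV mimic 2 and 5 the value of Myh4 was -0.03, on the other side of 0. MOV mimic 1, 2 and 4 lay above all MOV control libraries in both Myh7 and Myh7b.

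The fourth comparison was the mimic without overload, sham mimic against sham control, where all shares overlapped and so did the amounts of all 5 members (0.339% of genes were free of overlap). The mean differences were 4.54 points for Myh1 (exact permutation p = 0.468), -4.85 for Myh4 (exact permutation p = 0.548), 0.321 for Myh2 (exact permutation p = 0.881), -0.00780 for Myh7 (exact permutation p = 0.960) and -0.0000989 for Myh7b (exact permutation p = 1.00). The log2 fold changes of amount lay between -0.11 ± 0.33 (Myh4) and 0.25 ± 0.24 (Myh1), with the widest SE, 0.76, for Myh7. With edgeR 0 of 5 members were called where 0% of 14746 genes were, and 0 of 5 had an unadjusted p under 0.05, against 1.72% of all genes. DESeq2 and voom called 0 of 5 as well, where each called 0% of all genes. For Myh2, Myh4, Myh7 and Myh7b the sign of these values turned when single libraries were left out. For Myh1 the share difference lay between 1.14 points (without sham mimic 2) and 8.37 points (without sham control 3), and the log2 fold change between 0.11 and 0.42 without the same libraries.

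Whether the response to overload differed between mimic and control muscles was tested as an interaction term over all 20 libraries. It was -1.03 ± 0.57 on the log2 scale for Myh1, 0.77 ± 0.53 for Myh4, -0.56 ± 0.52 for Myh2, 0.83 ± 1.05 for Myh7 and 0.83 ± 0.62 for Myh7b (adjusted p from edgeR 1.00 for each). Without single libraries it ranged from -1.40 (without MOV mimic 3) to -0.74 (without MOV control 5) for Myh1, from 0.38 (without MOV mimic 5) to 1.03 (without sham mimic 1) for Myh4, from -0.82 (without MOV mimic 4) to -0.32 (without sham mimic 2) for Myh2, from 0.38 (without sham control 3) to 1.34 (without sham mimic 2) for Myh7 and from 0.61 to 1.08 for Myh7b. With edgeR 0 of 5 members passed, where 0% of 16166 genes did, and 0 of 5 had an unadjusted p under 0.05, against 2.64%. DESeq2 called 0 of 5, where it called 0.00619%, and voom 0 of 5, where it called 0%. The passing Myh4 share in control muscles and the p of 0.532 in mimic muscles hence do not show that the responses differed. Without MOV mimic 2 and 5 the interaction was 0.08 for Myh4 and -0.53 for Myh1.

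The members also varied together within groups. Over the 20 libraries the log2 CPM of Myh1 followed that of Myh2 (Pearson r 0.78, and 0.79 with group means removed) and ran against that of Myh4 (-0.48, and -0.56 with group means removed). Myh7b followed Myh7 (0.86, and 0.80 with group means removed). These values describe points that share a library, its depth and its scaling. The count of Myh1 was 1.94 to 4.25 times that of Myh2 in every library but MOV control 5, where it was 9.17 times. The count of Myh1 over that of Myh4 ran from 0.126 in MOV mimic 5 to 3.94 in MOV control 4.

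**Figure D4:**
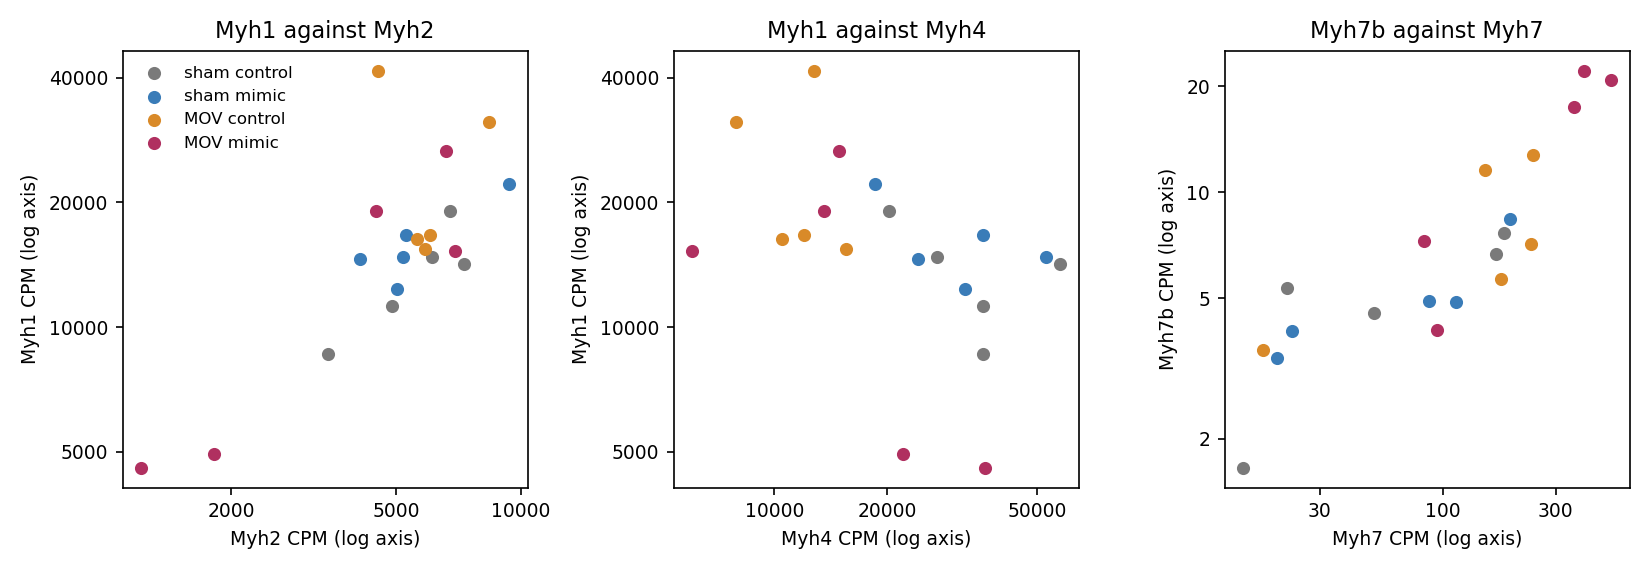
Each point is 1 library, with TMM-normalised CPM of a pair of heavy chains on log axes and the color giving the group. Myh1 and Myh2 lie along a rising line except MOV control 5, with MOV mimic 2 and 5 at its low end, and Myh7b rises with Myh7 to the MOV mimic libraries 1, 2 and 4.

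For each member the 3 most similar genes among 8515 with a mean of at least 10 CPM were found by Pearson correlation of log2 CPM over the 20 libraries. Those nearest to Myh4 were Smtnl2 (0.96), Pkdcc (0.96) and Pygm (0.96), the last being the glycogen phosphorylase of muscle. Myh1 was nearest to Shisa4 (0.93), Trp53inp2 (0.92) and Hspb6 (0.90), a small heat shock protein. Myh2 was nearest to Tfrc (0.90), the transferrin receptor, Myoz2 (0.89), a Z-disc protein, and Fhl1 (0.88). Myh7 was nearest to Tnnc1 (0.91), slow troponin C, Tpm3 (0.89), slow tropomyosin, and Atp2a2 (0.88), the slow-type calcium pump of the sarcoplasmic reticulum. For Myh7b the nearest gene of all was Myh7 (0.86), followed by Atp2a2 (0.85).

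The genes that make up the rest of a slow fiber, such as its troponins and light chains, were described as a list of 10. In MOV control against sham control 8 of 10 were above 0, with a median log2 fold change of 0.64 beside 0.04 over all genes tested. With edgeR 0 of 10 passed, while 5 higher and 2 lower had an unadjusted p under 0.05, against 18.2% of all genes. DESeq2 called 1 higher, Casq2, cardiac-type calsequestrin (1.41, adjusted p 0.0109), and 1 lower, Myl2, the slow regulatory light chain (-0.70, adjusted p 0.0483), where it called 6.1% of all genes. Voom called 0, where it called 1.96%. The slow troponins Tnni1 (1.45 ± 0.56), Tnnt1 (1.08 ± 0.45) and Tnnc1 (1.17 ± 0.63) lay above 0, but the slow light chain Myl3 (-0.97 ± 0.34) lay with Myl2 below it.

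In mimic muscles 8 of the 10 slow partners again lay above 0 (median 0.87, beside 0.02 over all genes). With edgeR 0 passed, and 5 higher and 0 lower had an unadjusted p under 0.05, against 13.4% of all genes. DESeq2 called 1, Tpm3 (1.35, adjusted p 0.0110), where it called 1.48%, and voom called 0, where it called 0.0134%. Tnnc1 (1.78 ± 0.65), Tnni1 (1.59 ± 0.70) and Tnnt1 (1.41 ± 0.58) had the largest values. For mimic against control the median was 0.07 in MOV and -0.16 in sham, with 0 of 10 passing edgeR, DESeq2 or voom in either. Under an unadjusted p of 0.05 there were 0 and 1 (lower), against 4.21% and 1.72% of all genes.

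**Figure D5:**
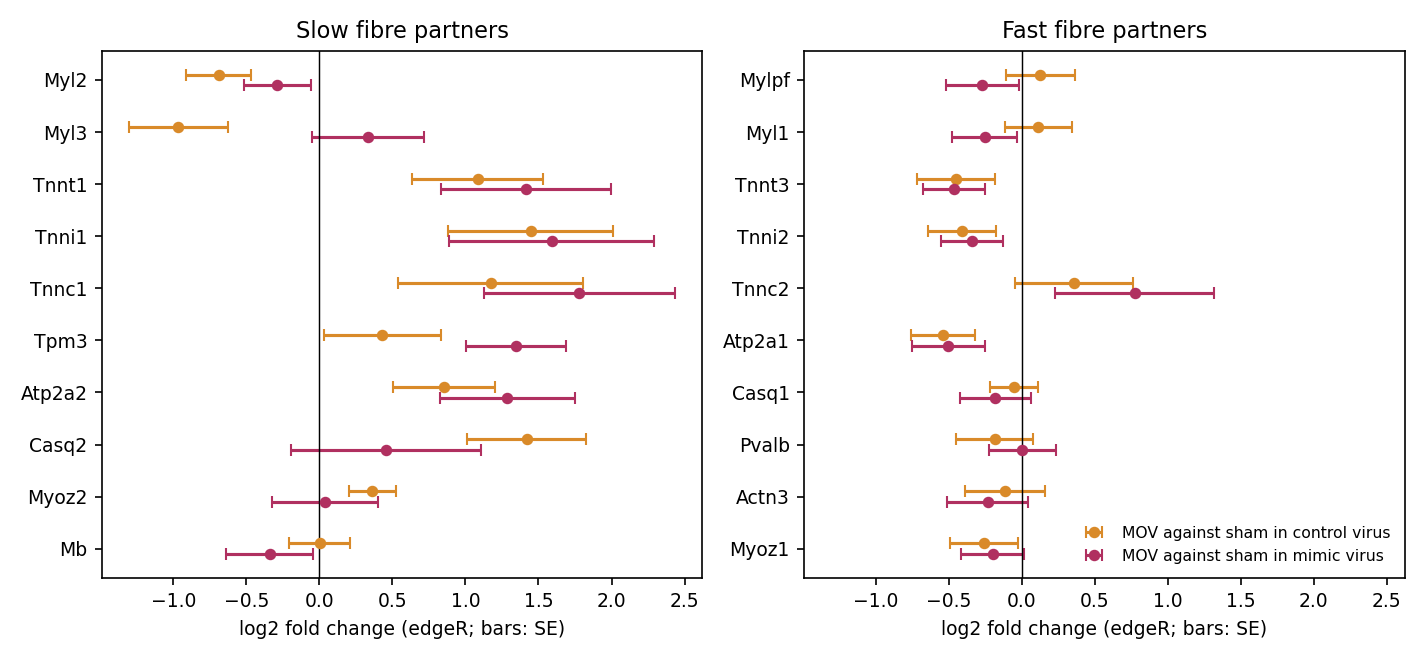
Points give the edgeR log2 fold change of MOV against sham (x axis, bars of 1 SE) for 10 slow (left) and 10 fast (right) fiber partner genes, in control and in mimic muscles. Among the slow partners the troponins Tnnt1, Tnni1 and Tnnc1 lie above 1 in both, while most of the fast partners lie between -0.54 and 0.

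The 10 fast fiber partners lay close to 0. In control muscles 7 of 10 were below 0 (median -0.15), and in mimic muscles 8 of 10 (median -0.25). The fast calcium pump Atp2a1 was lowest in both (-0.54 ± 0.22 and -0.50 ± 0.25), and Tnnc2, fast troponin C, was highest (0.36 ± 0.40 and 0.77 ± 0.54). Tnnc2 held only 0.433 to 2.74 CPM per library, so its values rest on few counts. The fast partners Tnni2 and Tnnt3 held 3661 to 10510 CPM and 7038 to 24130 CPM. Whether reads of Tnnc2 were lost in annotation or counting was not tested, and its CPM should not be read as its level in the muscle. In control and in mimic muscles, 0 of 10 passed edgeR, DESeq2 or voom and 1 (lower) had an unadjusted p under 0.05, against 18.2% and 13.4% of all genes. For mimic against control 9 of 10 were below 0 both in MOV (median -0.16) and in sham (median -0.15), with 0 of 10 under an unadjusted p of 0.05 and 0 called by any of the 3 tools.

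Of 32 genes known to regulate heavy chain genes, 0 passed edgeR in control muscles. At an unadjusted p under 0.05 there were 6 higher and 4 lower, against 18.2% of all genes (median log2 fold change 0.17, beside 0.04). Voom called 0 of 32, where it called 1.96% of all genes, and DESeq2 called 1, where it called 6.1%. The 1 called was the long non-coding RNA 2310065F04Rik, known as linc-MYH, which is made at the fast cluster (log2 fold change from DESeq2 -1.63, adjusted p 0.00209). It held 25.7 to 136 CPM in sham control and 15.7 to 37.6 CPM in MOV control, ranges that overlapped. Rcan1, a target and inhibitor of calcineurin signaling (0.64 ± 0.20), and Vgll2, a cofactor of TEAD factors (0.64 ± 0.21), had adjusted p-values from edgeR of 0.129 and 0.142.

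In mimic muscles 0 of 32 regulators passed edgeR, while 2 higher and 5 lower had an unadjusted p under 0.05, against 13.4% of all genes (median -0.06, beside 0.02). DESeq2 called 1, Nfatc2, a calcineurin-dependent factor (0.55, adjusted p 0.0283), where it called 1.48% of all genes, and voom called 0, where it called 0.0134%. Ppargc1a, the coactivator of the oxidative program (-0.51 ± 0.16), had an adjusted p from edgeR of 0.285. For mimic against control 0 of 32 passed edgeR, DESeq2 or voom in MOV (1 lower under an unadjusted p of 0.05, against 4.21% of all genes) or in sham (0 under it, against 1.72%).

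The list of thick filament partners held 10 genes (Mybpc1, Mybpc2, Mybph, Myom1, Myom2, Myom3, Unc45b, Smyd1, Hsp90aa1 and Trim63). Of these, 0 passed edgeR in control muscles. DESeq2, which called 6.1% of all genes, called 2 higher, Mybph, myosin-binding protein H (1.32, adjusted p 0.00813), and Myom3, an M-band protein (0.97, adjusted p 0.0231). It called 1 lower, Mybpc2, the fast myosin-binding protein C (-0.60, adjusted p 0.0430). Voom called 0 of the 10, where it called 1.96% of all genes, and 2 higher and 2 lower had an unadjusted p from edgeR under 0.05, against 18.2%. In mimic muscles 0 passed edgeR, DESeq2 or voom, with 1 higher and 3 lower under an unadjusted p of 0.05, against 13.4% of all genes. Mybph was 1.30 ± 0.57 there and Mybpc2 -0.53 ± 0.24.

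The other sarcomeric heavy chains Myh3, Myh8, Myh6 and Myh13 summed to 40.6 to 610 CPM in sham control, 230 to 1233 CPM in MOV control, 32.8 to 1505 CPM in sham mimic and 31.7 to 1076 CPM in MOV mimic. The highest sum was that of sham mimic 2. Myh3, the embryonic chain, lay between 11.3 and 325 CPM in sham control and between 101 and 760 CPM in MOV control (log2 fold change 1.73 ± 0.84, adjusted p from edgeR 0.295). Myh8, the perinatal chain, was between 10.5 and 280 CPM and between 126 and 470 CPM (1.18 ± 0.67, adjusted p from edgeR 0.377). In mimic muscles Myh3 lay between 10.5 and 1035 CPM in sham and between 4.44 and 571 CPM in MOV (0.21 ± 1.10, adjusted p from edgeR 0.949), and Myh8 between 13.6 and 465 CPM and between 20.8 and 502 CPM (0.83 ± 0.86, adjusted p from edgeR 0.697). Myh13, the chain of eye muscles, and Myh6, the cardiac alpha chain, were under 13 CPM in every library. DESeq2 called 1 of these 4, Myh13, lower in MOV control against sham control (-2.04, adjusted p 0.00555), where it called 6.1% of all genes. With edgeR 0 passed and 2 lower had an unadjusted p under 0.05, against 18.2%, and voom called 0. With these 4 added to the denominator the Myh4 share was still 34.3 points lower in MOV control (exact permutation p = 0.00794).

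Markers of other cell types were set beside these results. Summed endothelial markers (5 genes) were 240 to 318 CPM in sham control and 138 to 282 CPM in MOV control, and 273 to 371 CPM in sham mimic and 201 to 238 CPM in MOV mimic. Fibroblast markers (8 genes) were 1301 to 14580 CPM in sham control and 4604 to 17000 CPM in MOV control, leukocyte markers (12 genes) 258 to 1054 CPM and 258 to 884 CPM, smooth muscle markers (4 genes) 120 to 166 CPM and 83.5 to 238 CPM, and satellite cell markers (4 genes) 36.6 to 55.0 CPM and 50.2 to 70.8 CPM. In sham mimic and MOV mimic, fibroblast markers were 1935 to 13560 CPM and 7724 to 13810 CPM, leukocyte markers 259 to 951 CPM and 494 to 1024 CPM, smooth muscle markers 112 to 150 CPM and 104 to 140 CPM, and satellite cell markers 35.6 to 61.2 CPM and 32.7 to 66.3 CPM. Of 11 leukocyte markers tested, 9 were above 0 in MOV mimic against sham mimic (median log2 fold change 0.44, 4 higher at an unadjusted p under 0.05, against 13.4% of all genes). In MOV mimic against MOV control 10 were above 0 (median 0.50, 3 higher, against 4.21%). In MOV control against sham control 9 were below 0 (median -0.36, 0 under that p, against 18.2%). The 5 endothelial markers had medians of -0.49 (3 lower at that p) for MOV against sham in control muscles and -0.66 (4 lower) in mimic muscles. MOV mimic 2, one of the 2 libraries with a high Myh4 share, had the highest fibroblast (13810 CPM) and leukocyte (1024 CPM) sums of its group and the lowest sum of myofiber reference genes of all 20 libraries (39160 CPM). MOV mimic 5, the other, held 10630 and 494 CPM of these markers, the latter the lowest of its group, and 62800 CPM of the reference genes. With edgeR 0 genes of these lists or of the myofiber reference genes passed in any comparison. DESeq2 called Kdr, Myh11 and the reference gene Tcap lower and Pax7 higher in MOV control against sham control, where it called 6.1% of all genes. It called Cdh5 and Tek lower in MOV mimic against sham mimic, where it called 1.48%. Voom called Tcap in control muscles, where it called 1.96%. The part of any of these in the heavy chain results was not tested.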

How the data were processed

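The authors trimmed reads with Trim Galore 0.6.10 and cutadapt 4.4, aligned them with HISAT2 2.0.5 to GRCm38 and counted them per gene with featureCounts 1.5.0-p3, per the labels and the methods of the study. The deposited values are raw counts per Ensembl gene for 20 libraries. Which annotation release and strand setting were used, and how reads with several alignments were treated, are not given in the sources used here.

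Levels are CPM after TMM scaling over 20 libraries. Groups were compared with edgeR 4.0.16 (quasi-likelihood, filterByExpr, 10 libraries per comparison and 20 for the interaction, two-sided, Benjamini-Hochberg over all genes tested, threshold 0.05) in R 4.3.3. For MOV control against sham control the fits were also tried on simulated data, with an outcome not reported here. DESeq2 1.42.0, limma 3.58.1 with voom, other scalings and filters, a replicate block and leaving out each library were alternatives. Shares were compared by exact permutation tests, computed directly in Python 3.11.15. Total counts were 12036360 to 23056525 per library, and each group had 5 libraries. Which of these limits precision more was not compared. Counts were few for Myh7b and for listed genes of few CPM such as Tnnc2, Myh6 and Myh13. Genes were named as the 5 members, every gene of the fixed lists and the 3 genes most similar to each member. Some genes that this rule names are not reported here. Of 112 listed genes 111 were matched. The members and lists were chosen with earlier results of these data known. Sequences came from RefSeq tables of GRCm38.p6, and transcript lengths from GENCODE vM1.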

Additional observations from a re-analysis of the deposited data

Results flagged for a closer look

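Within groups of 5 libraries, a value was marked where its gap to the nearest other library exceeded 0.71 of the group's range (Dixon's criterion), in 40 sets of values (5 members, amount and share, 4 groups). Chance marks about 1 in 20 such sets, and 3 values were marked, all for Myh2. In sham mimic 2 the amount of Myh2 was 9395 CPM and its share 18.7%, both the highest of the group. In MOV control 5 the share of Myh2 was 7.70%, the lowest of its group. MOV mimic 2 and 5, in which Myh4 took 75.5% and 86.1%, were not marked, since each lies near the other.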

How the results depend on the processing

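The number of genes called for MOV control against sham control moved widely with the method. Of 14974 genes tested it was 1 with edgeR, 913 with DESeq2, 294 with voom and 0 on the scale of the myofiber reference genes. It was 388 of 28224 without a filter on low counts, 163 of 22203 with a minimum of 10 counts in total and 36 of 16166 with all 20 libraries in 1 fit. Of the members, 1 (Myh4) was called by DESeq2, by voom, without the filter and with the minimum of 10 counts. For MOV mimic against sham mimic, 221 genes were called by DESeq2, 2 by voom, 1 without the filter and 3 with all 20 libraries in 1 fit, with 1 member (Myh7b) called by DESeq2. For MOV mimic against MOV control, DESeq2 called 3 genes and the fit of all 20 libraries 1, and for the interaction DESeq2 called 1.

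Leaving out 1 library at a time gave between 0 and 426 genes and between 0 and 1 members for MOV control against sham control, with the upper values without sham control 3 (318 genes and 1 member without MOV control 5), and between 0 and 101 genes for MOV mimic against sham mimic, with the upper value without MOV mimic 5. The log2 fold change then ranged from -0.0484 to 0.21 for Myh2 in control muscles and from -0.56 to 0.02 for Myh1 in mimic muscles. For sham mimic against sham control it ranged from -0.21 to 0.14 for Myh2, from -0.34 to 0.13 for Myh4, from -0.51 to 0.46 for Myh7 and from -0.26 to 0.19 for Myh7b. Differences of share (percentage points) ranged from 3.67 to 6.40 for Myh2, from 0.201 to 0.375 for Myh7 and from 0.00708 to 0.0147 for Myh7b in MOV control against sham control. They ranged from -2.22 to 3.10 for Myh2, from 0.509 to 0.909 for Myh7 and from 0.0265 to 0.0434 for Myh7b in MOV mimic against sham mimic. In sham mimic against sham control they ranged from -1.62 to 1.33 for Myh2, from -9.75 to 0.542 for Myh4, from -0.0611 to 0.0462 for Myh7 and from -0.00185 to 0.00159 for Myh7b.

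Around 0, signs turned with the setting. Myh7 in sham mimic against sham control was 0.0042 with DESeq2, 0.0247 with voom, 0.0035 with the size factors of DESeq2 and 0.0006 with the minimum of 10 counts, and Myh1 in MOV mimic against sham mimic was 0.0324 on the scale of the myofiber reference genes. Leaving out both MOV mimic 2 and 5, chosen after the data were seen, gave log2 fold changes of 0.0374 for Myh2 and 0.32 for Myh1 against sham mimic and -0.0345 for Myh4 against MOV control. Shares then differed by 22.6 points for Myh1, -29.1 for Myh4 and 0.0328 for Myh7b against sham mimic, and by 1.49 for Myh2 against MOV control, all given with no test. On the reference gene scale the median of all genes was 0.165 in control muscles and 0.354 in mimic muscles. The cause of these moves was not tested.

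Equal replicate numbers were tried as a block. Sham and MOV libraries came from different mice and share only a number, so a block across the surgeries is a setting and no pairing. Mimic and control libraries of equal number deviated together with correlations of 0.0286 to 0.899 in sham and 0.0631 to 0.513 in MOV, and 3 of 5 in each surgery correlated best with their own number, a hint from the data only. With the replicate block DESeq2 called 722 genes for MOV control against sham control, 116 genes and 1 member (Myh7b, 1.31, adjusted p 0.0328) for MOV mimic against sham mimic, 127 for MOV mimic against MOV control and 5 for the interaction, where edgeR with the same block called 1, 0, 0 and 0 genes. Myh4 in control muscles was -1.54 with the replicate block in edgeR (adjusted p 0.133). In sham mimic against sham control the block gave 0.28 for Myh7 and 0.047 for Myh7b in edgeR and 0.31 and 0.0655 in DESeq2. Shares under an exact sign-flip test by number, which cannot give a p below 0.0625, differed by 29.2 points for Myh1, -34.1 for Myh4 and 4.54 for Myh2 in control muscles and by 0.733 for Myh7 and 0.0345 for Myh7b in mimic muscles, each with p = 0.0625.

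The smallest difference that 5 libraries per group could show was not computed. Counting error weighs on Myh7b, down to 26 counts in a library, and more on Tnnc2 (0.433 to 2.74 CPM), Myh6 (0.798 to 5.91 CPM) and Myh13 (0.213 to 12.9 CPM). Counts divided by transcript length, or heavy chains outside the 5 added to the sum, changed no call on a share.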
